A study of Ovis aries with 18 samples.

Results

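Allelic imbalance (AI) was described for the nuclear receptors and adipogenic transcription regulators of fetal perirenal adipose tissue (PRAT). The members were chosen by gene symbol alone, as the genes named for nuclear receptors, their coactivators and corepressors, Mediator subunits, C/EBP, CREB, ATF, MAF and MLX factors, and lineage factors such as EBF, KLF, NFI, TBX and ZBTB genes. They comprised 360 SNPs in 85 genes, of 24,355 SNPs in 5810 genes, and 1 SNP that fitted by name, in MED14 on the X chromosome, was left out. The symbols take in a whole family at a time, so that some members, such as ZBTB8OS and CEBPZ, have no established part in fat cell formation. RNA-Seq reads of each allele had been counted in 18 fetuses that form a single group. All were pure bred Merino, wild type and untreated, were taken at 132 days post coitum (dpc), and shared a common sire with unrelated ewes as dams. There were 16 females and 2 males.

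A nuclear receptor binds DNA, often as a dimer with a retinoid X receptor (RXR), and its ligand exchanges corepressors for coactivators, which reach RNA polymerase through the Mediator complex. PPARG, working with C/EBP factors, drives the formation of fat cells, and PRDM16, EBF2 and PPARGC1A are known for directing brown fat genes. The perirenal depot of the fetal lamb is largely brown fat, which makes heat after birth.

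Several markers of the labelled tissue carried many reads. At the SNPs of UCP1, the uncoupling protein of brown fat, the animals had from 6213 to 18423 reads per SNP, with a median of 9462. ADIPOQ, a hormone of fat cells, had a median of 11064 reads per SNP, PPARG had 852 and EBF2 had 405.2. Lower medians were found for DIO2 (138), PPARGC1A (116.5) and LEP (100.5). In all, 9 of 14 adipocyte and brown fat markers had a SNP in the table, and a marker without one says nothing of its expression.

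Markers of other cells were read as well. Of the endothelial markers, 5 of 6 had SNPs, with medians from 90.1 reads per SNP at TEK to 312 at CDH5. Of the fibroblast markers 5 of 6 did, with medians from 39 at PDGFRA to 3044 at COL3A1. Immune markers had SNPs in 3 of 7 genes, all with a median under 50 reads, the highest being CSF1R with 39.4. MYH11 was the only one of 8 muscle markers with SNPs, at 34 to 407 reads per SNP. STAR was the only one of 9 adrenal and kidney markers with SNPs, with a median of 49.8 reads, and the 4 erythroid markers had none. In tissue of mixed cells, fewer cells of a type and less RNA per cell cannot be told apart, and the part that the cell types took in any allelic share was not tested.

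Reads at all SNPs of the table ranged from 2,970,824 in RS902 to 5,334,585 in RS917. At the member SNPs the animals had 29,222 to 50,499 reads, with a median of 42,108. An animal was heterozygous at 182 to 239 member SNPs, and its median number of reads at them lay between 37 and 78. The fraction of reads that carry the reference allele, called the reference share here, is 0.5 where both alleles are equally abundant. At the member SNPs that were heterozygous in under 15 animals, the reference allele had from 50.9% of the reads of an animal, in RS905, to 57.3%, in RS943.

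AI was found in 48 of the 85 genes, at 122 SNPs (33.9%), when the reads of all heterozygous animals were summed and each read was taken as independent (likelihood ratio test, LRT, Benjamini-Hochberg adjusted over the whole table). In the whole table the same test called 38% of SNPs and 58.5% of genes. With the animals as replicates, a moderated quasi-binomial test called 90 SNPs (25%) in 34 genes, against 24.5% of SNPs and 41.4% of genes in the whole table. All 90 were also called by the LRT. These totals join SNPs of different kinds, which are given apart below. With SNPs heterozygous in 15 or more animals, SNPs within 5 bp of another and SNPs with over 2% of reads of an allele that homozygous animals lack all left out, a choice made after seeing the data, the moderated test called 26 of 275 SNPs (9.45%) in 17 genes, against 17.2% of SNPs and 32.6% of genes in the whole table. The adjusted p-values below are from the moderated test, with limma and Benjamini-Hochberg adjustment over all SNPs, unless the LRT is named. Some SNPs were named because both tests called them with the same allele higher in every animal, so neither is separate support there. These are the first positions given below for CREB3L1, CREBBP, MED13L, MED22, MLXIPL, NCOR1, NFIX, NR1H3, RXRB and TBX2.

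Most imbalances were small. The median reference share of the member SNPs was 0.519, the same as in the whole table, and 17 of the 302 SNPs that were heterozygous in under 15 animals lay more than 0.1 from 0.5 (5.63%, against 8.65% in the whole table). These 17 SNPs were in 8 genes. Reference reads outnumbered alternate reads at 92 of the 122 SNPs called by the LRT (75.4%), against 76.3% in the whole table. This direction depended on the null share. With the null set to the median share of all SNPs, 114 SNPs were called (31.7%, against 34.6% in the whole table). Of these, 59 had the reference allele higher and 55 had the alternate allele higher (51.8% reference). That null is the median of these same shares, so a near-even split was largely fixed by its choice. The share differed between animals at 34 SNPs (9.44%) in 23 genes, against 15.4% of SNPs in the whole table.

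A small set of SNPs heterozygous in nearly every animal held much of the AI. Of the 58 member SNPs that were heterozygous in 15 or more animals, 46 (79.3%) were called by the moderated test, against 59.4% of such SNPs in the whole table. Of the 302 others, 44 (14.6%) in 24 genes were called, against 20.6% of such SNPs and 37.4% of genes in the whole table. By the LRT 75 of the 302 (24.8%) were called, against 34.6% in the whole table. The differences between members and whole table were not tested. In 10 genes, AI was called at SNPs of the first kind only. In the whole table the moderated test called 2398 of 5790 genes at any SNP. It called 2090 of 5593 genes at SNPs heterozygous in under 15 animals. Transversions made up 62.1% of the 58 SNPs and 19.9% of the 302, against 44.4% and 19.1% of such SNPs in the whole table.

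**Figure D1:**
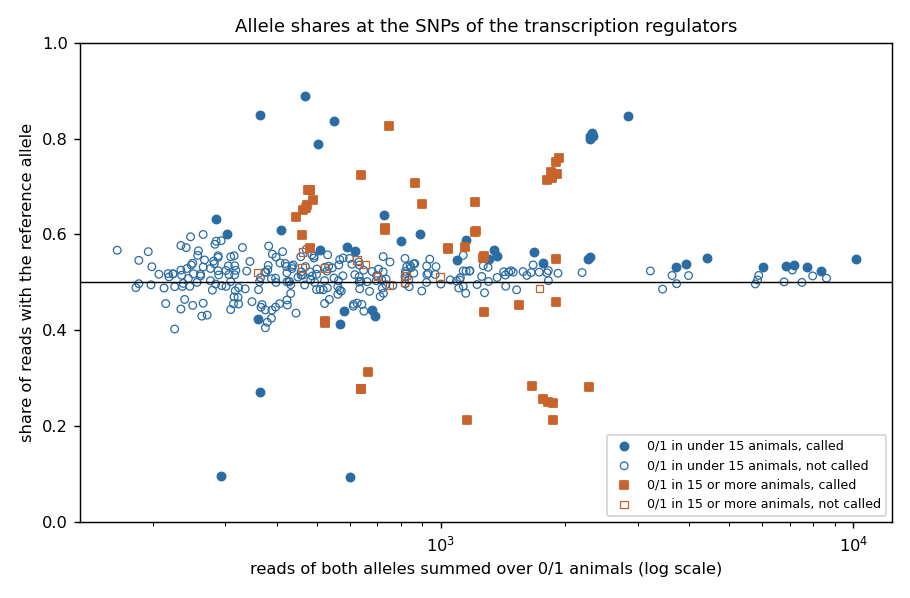
Each point is 1 of the 360 member SNPs, with the summed reads of its heterozygous animals on the x axis (log scale) and its summed reference share on the y axis. Filled points were called by the moderated quasi-binomial test, and orange squares were heterozygous in 15 or more of 18 animals. Most of the blue circles lie near 0.5, and 46 of the 58 orange squares were called.

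Of these SNPs, 49 in 11 genes were heterozygous in all 18 animals, and 47 of the 49 fell into 9 blocks of neighbouring SNPs, with 1 block per gene. A block spanned from 2 to 178 bp. The genes included the corepressor NCOR1, the coactivators CREBBP and NCOA6, the receptors NR2F2 and THRA, and the DNA-binding factors NFIX, ZBTB11 and ZBTB7B, the last of which was chosen after its values were seen. Within these blocks 41 SNPs were called and 28 were missense. Of all member SNPs heterozygous in 18 animals, the moderated test called 87.8%, against 73.1% of such SNPs in the whole table. What part the near-universal heterozygosity of these positions had in their shares was not tested, and the shares of these SNPs are given below with that mark.

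Among the 19 nuclear receptors, 27 of 67 SNPs (40.3%) in 10 genes showed AI by the moderated test, against 24.5% of SNPs and 41.4% of genes in the whole table, 21 with the reference allele higher and 6 with the alternate allele higher. At SNPs heterozygous in under 15 animals, 18 of 52 (34.6%) were called, against 20.6% in the whole table, and 5 of the 18 were neighbouring SNPs downstream of ESRRA, read in nearly the same animals. PPARG, the master regulator of fat cell formation, is listed as PPARG2. At its SNP at position 56570245 of chromosome 19 (Oar v3.1, as are all positions below), the reference share in 9 animals was 0.482 at the lowest, 0.553 at the median and 0.595 at the highest, with a mean of 0.547 ± 0.0334 (SD, n = 9). Thus 8 of 9 animals had more reference reads, and RS926 had more alternate reads (0.482, 95% Wilson interval 0.452 to 0.513, counting error only). The summed share was 0.548, from 5548 reference and 4570 alternate reads (adjusted p = 2.27e-04), and it differed between the animals by more than counting error (adjusted p = 1.65e-04, homogeneity chi-square). With the reads of each animal thinned to 50, the LRT no longer called it (adjusted p = 0.0782). Over the 6 SNPs of PPARG2 the summed share ran from 0.497 to 0.551, and 3 were called, each with the reference allele higher.

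PPARD, a receptor for fatty acids that favours their oxidation, leaned the other way. At position 9492327 of chromosome 20 its reference share was 0.333 at the lowest, 0.440 at the median and 0.548 at the highest of 9 animals. The alternate allele was higher in 8 of the 9, and the summed share was 0.430 (adjusted p = 0.0230). An exact sign-flip permutation test over the 9 animals gave p = 0.0156, 1 of the 45 such tests run for the named SNPs (two-sided). Without RS905, RS937 or RS969 the moderated test no longer called it, with adjusted p of 0.0507 to 0.0822, nor did the LRT with reads thinned to 50 (adjusted p = 0.0840).

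PPARA, the receptor that governs fatty acid oxidation in liver, had a share of 0.391 to 0.608 over 10 animals, with a median of 0.499, at position 220651551 of chromosome 3. It was higher than 0.5 in 5 animals and lower in 5, and AI was not called (summed share 0.513, adjusted p = 0.762). RXRG was the receptor with the most reads that was not called. Its SNP at position 115479770 of chromosome 1 had 3750 reads of each allele in 8 animals, whose shares ran from 0.475 to 0.517. Tested against the median share of 0.519, this balance was itself called by the LRT (adjusted p = 0.00548).

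RXRB, a partner of PPAR, thyroid hormone and liver X receptors, held some of the most unequal shares among the receptors. At position 7483407 of chromosome 20, in the 3′ UTR, the reference share was 0.708 at the lowest, 0.779 at the median and 0.894 at the highest of 8 animals. All 8 had more reference reads (summed share 0.789, 396 and 106 reads, adjusted p = 4.23e-08). At position 7483295, 112 bp away, the share in the same 8 animals was 0.209 at the lowest, 0.258 at the median and 0.395 at the highest, and the alternate allele was higher in every animal (summed share 0.272, adjusted p = 4.76e-06). All 10 homozygous animals carried the reference allele at one of these positions and the alternate allele at the other, so that the higher alleles at both were those found together in homozygous animals. At position 7483076 the alternate allele was also higher in these 8 animals, at 0.353 to 0.488 (summed share 0.423, adjusted p = 0.0471), and animals homozygous for the alternate allele had a mean of 2.06% reference reads. There, however, homozygous animals carried the reference allele together with that at position 7483407, so that the higher allele was the one found with the lower allele at the other positions. Position 7483710, heterozygous in all 18 animals, was called as well (summed share 0.453, adjusted p = 0.00926, alternate allele higher in 15). The other 7 SNPs of RXRB had summed shares of 0.456 to 0.551 and were not called.

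ESRRA, an orphan receptor that works with PPARGC1A on genes of mitochondria, had the greatest differences between animals of all members. Downstream of the gene, at position 41921213 of chromosome 21, the reference share was 0.258 at the lowest, 0.878 at the median and 0.898 at the highest of 13 animals. It was above 0.5 in 11 animals, and below it in RS920 (0.324, Wilson interval 0.224 to 0.442) and RS969 (0.258, 0.179 to 0.358). The summed share was 0.847 (adjusted p = 2.30e-07), with a dispersion between animals of 34.6 where counting error alone gives a value near 1.

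At positions 41921217 to 41921219, a few bases on, 9 animals were above 0.5 and 4 were below. RS918 had 128 reference and 28 alternate reads at position 41921213 (share 0.821) and 12 and 29 at position 41921217 (0.293). RS926 had 134 and 20 (0.870), then 6 and 22 (0.214). The animals thus fell into high and low ones with none near 0.5, and those 2 were high at the former position and low at the latter, where they had far fewer reads. At position 41921214, in between, both were called homozygous for the alternate allele, and the homozygous alternate animals had a mean of 5.77% reference reads there. What part the genotype calls and the depth had in these shares was not tested. A sign-flip permutation test that gives each animal the same weight had p = 0.00372 at position 41921213, 0.0169 at 41921214, 0.0829 at 41921217, 0.0804 at 41921218 and 0.0924 at 41921219.

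Within ESRRA the shares were unlike those downstream. At position 41915950, heterozygous in all 18 animals, the share was 0.174 at the lowest, 0.287 at the median and 0.372 at the highest, with the alternate allele higher in every animal (summed share 0.281, adjusted p = 9.66e-13). At position 41919985 all 9 heterozygous animals favoured the reference allele by a small margin, at 0.514 to 0.563 (summed share 0.532, adjusted p = 0.00168). The called SNPs of this gene therefore pointed in both directions.

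NR1H3, the liver X receptor alpha that senses sterols, was called at 2 of its 4 SNPs, which lie 3 bp apart. At position 75362514 of chromosome 15 the reference share was 0.522 at the lowest, 0.559 at the median and 0.609 at the highest of 7 animals. All 7 lay above 0.5 (summed share 0.567, adjusted p = 0.00258). In the same animals the summed shares at positions 75364180 and 75367187 were 0.525 and 0.519, not called. All 11 homozygous animals carried unlike alleles at these positions and at 75362514, and which alleles lie together in the heterozygous animals was not tested.

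Of the other receptors, THRA and NR2F2 had SNPs in blocks that were heterozygous in all 18 animals, and none elsewhere. THRA encodes the thyroid hormone receptor alpha, through which thyroid hormone acts on brown fat. At position 39970818 of chromosome 11 its share was 0.494 at the lowest, 0.649 at the median and 0.909 at the highest, and 17 of 18 animals had more reference reads (summed share 0.668, adjusted p = 8.59e-06). It was among the SNPs that differed between animals (adjusted p = 1.56e-07). NR2F2, an orphan receptor that restrains fat cell formation, had shares of 0.353 to 0.743 with a median of 0.622 at position 9711718 of chromosome 18. Reference reads prevailed in 16 of 18 animals (summed share 0.613, adjusted p = 5.17e-04), and 2 of the 7 SNPs in that block were called.

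NR2C1, an orphan receptor, is named after its values were seen. Its missense SNP at position 131108570 of chromosome 3 had shares of 0.478 to 0.920, with a median of 0.625, and the reference allele was higher in 7 of 9 animals (adjusted p = 0.0227). The receptors RXRA and NR3C1, which had been listed for description, had no SNP in the table.

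**Figure D2:**
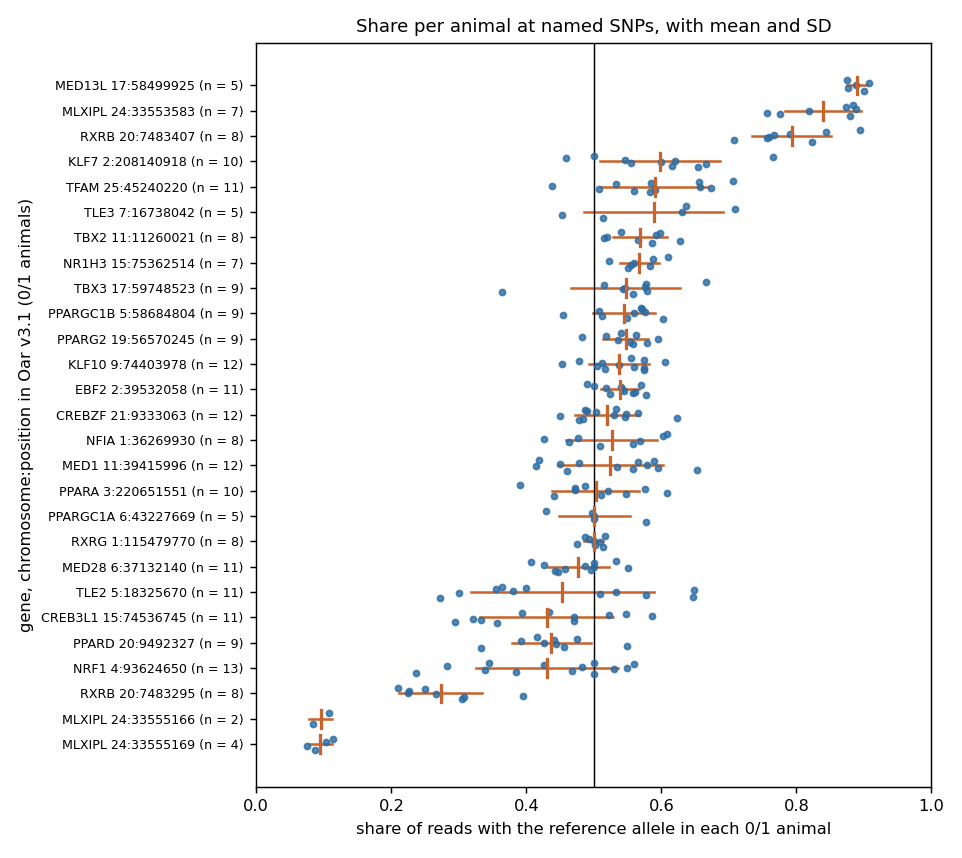
Each point is the reference share (x axis) of 1 heterozygous animal with at least 10 reads at a named SNP (y axis). The SNPs shown were heterozygous in under 15 animals, and those of ESRRA were left out. Bars are the mean ± SD over animals, and the vertical line marks 0.5. The animals at RXRB 7483407 all lie to the right of 0.5, and those at RXRB 7483295 all lie to the left.

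The coactivators, which acetylate histones or bring such enzymes to a receptor, had 44 SNPs in 6 genes. Of these, 9 (20.5%) in 4 genes were called, against 24.5% in the whole table, 5 with the reference allele higher and 4 with the alternate allele higher, and at SNPs heterozygous in under 15 animals 2 of 36 (5.56%) were, against 20.6%. PPARGC1A, the cold-induced coactivator of mitochondrial genes, had 317 reference and 316 alternate reads in 5 animals at position 43227669 of chromosome 6. Its shares ran from 0.430 to 0.577 with a median of 0.5, and AI was not called (adjusted p = 0.985).

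PPARGC1B, its close relative, had shares of 0.455 at the lowest, 0.560 at the median and 0.603 at the highest of 9 animals at position 58684804 of chromosome 5. In 8 of 9 animals reference reads were the more frequent, and the summed share was 0.550. The LRT called it (adjusted p = 0.0134) and the moderated test did not (adjusted p = 0.0631). Single animals moved both calls: without RS910 the LRT gave adjusted p = 0.0909, and without RS905 the moderated test gave 0.0233. The LRT call was also lost with the null at the median share (adjusted p = 0.155) and with reads thinned to 50 (adjusted p = 0.157).

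CREBBP, a histone acetyltransferase, held opposite shares 2 bases apart on chromosome 24, in a block heterozygous in all 18 animals. At position 3079976 the reference share was 0.606 at the lowest, 0.717 at the median and 0.839 at the highest (adjusted p = 9.76e-11, above 0.5 in 18 of 18). At position 3079978 it was 0.161 at the lowest, 0.278 at the median and 0.394 at the highest (adjusted p = 1.86e-10, below 0.5 in 18 of 18). Both SNPs are missense, and each animal thus had more reads of the reference allele at the former and of the alternate allele at the latter.

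NCOA6, a coactivator that binds many receptors, had shares of 0.5 to 0.857 with a median of 0.710 at position 63638771 of chromosome 13, again in such a block. The reference allele was higher in 17 of 18 animals and equal in 1 (adjusted p = 3.74e-07). NCOA5, chosen after its values were seen, had shares of 0.450 to 0.727 with a median of 0.623 at position 74335733 of chromosome 13, where 9 animals were heterozygous. Reference reads prevailed in 8 of 9 (summed share 0.610, adjusted p = 0.0106). NCOA1 and NCOA2 had no SNP.

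Mediator, which joins receptors and other activators to RNA polymerase, had 46 SNPs in 15 of its subunit genes, and 6 (13%) in 3 genes were called, all with the reference allele higher, against 24.5% in the whole table. MED1, the subunit that binds PPARG and thyroid hormone receptors, had shares of 0.414 to 0.652 with a median of 0.546 in 12 animals at position 39415996 of chromosome 11, and AI was not called (adjusted p = 0.588). MED28, the subunit with the most reads among those called by neither test, had shares of 0.407 to 0.550 with a median of 0.487 at position 37132140 of chromosome 6 (adjusted p = 0.344). Tested against the median share of 0.519, its lower reference share was called by the LRT (adjusted p = 0.0182).

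MED13L, a subunit of the kinase module of Mediator, was the most unequal subunit. At position 58499925 of chromosome 17, in the 3′ UTR, the share was 0.875 at the lowest, 0.889 at the median and 0.908 at the highest of 5 animals. All 5 had many more reference than alternate reads (416 and 52, adjusted p = 2.45e-09). The 13 homozygous reference animals also had a mean of 6.80% alternate reads at this position, so that reads of the alternate allele appeared where the genotype call lacks it. Most other MED13L SNPs lay near balance, at 0.487 to 0.557, apart from position 58499888, where the share was 0.848 and homozygous animals had 6.68% alternate reads.

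MED22, a subunit of the Mediator head, had its imbalance at a single SNP, in a splice acceptor or the 3′ UTR by annotation. At position 2566757 of chromosome 3 the share was 0.755 at the lowest, 0.821 at the median and 0.909 at the highest of 17 animals. All 17 had the reference allele higher (adjusted p = 5.58e-15), and the 1 homozygous animal had 7.41% reads of the other allele. The other 3 SNPs of MED22 had summed shares of 0.489 to 0.508. MED17, chosen after its values were seen, had 3 called SNPs at positions 513764 to 513788 of chromosome 21, with summed shares of 0.587 to 0.641. The 2 animals homozygous at all 3 carried unlike alleles at the middle SNP and at the outer ones, and which alleles lie together in the heterozygous animals was not tested. At the last of them the animals ran from 0.447 to 0.811, with the reference allele higher in 9 of 11 (adjusted p = 0.00169).

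Among the 7 corepressor genes, 13 of 39 SNPs (33.3%) in 3 genes were called, against 24.5% of SNPs in the whole table, all with the reference allele higher, and 1 of 27 (3.7%) at SNPs heterozygous in under 15 animals, against 20.6% in the whole table. NCOR1, a corepressor that holds receptors silent and restrains PPARG, was called most clearly in its block on chromosome 11. At position 32985653 the share was 0.708 at the lowest, 0.759 at the median and 0.837 at the highest of 18 animals, with the reference allele higher in every one (1468 and 465 reads, adjusted p = 1.46e-16). The 6 SNPs of that block had summed shares of 0.714 to 0.759. Elsewhere in NCOR1 the summed shares were 0.488 to 0.522, apart from 0.573 at position 32929154 (adjusted p = 8.18e-04), which was heterozygous in 16 animals.

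TLE3, a corepressor that takes part in fat cell formation with PPARG, had shares of 0.453 to 0.709 with a median of 0.630 in 5 animals at position 16738042 of chromosome 7. The LRT called it (adjusted p = 0.00996) and the moderated test did not (adjusted p = 0.155), and the animals did not share a clear direction, with 4 above 0.5 and 1 below. The LRT did not call it without RS919, RS929 or RS943 (adjusted p of 0.0628 to 0.118), nor with the null at the median share (adjusted p = 0.0661), while without RS918 the moderated test called it (adjusted p = 0.0329). TLE2 was not called (adjusted p = 0.471), and its 11 animals spread widely, from 0.273 to 0.649. NRIP1 had no SNP.

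The bZIP and MLX factors had 49 SNPs in 8 genes, of which 10 (20.4%) in 4 genes were called, against 24.5% in the whole table, 8 with the reference allele higher. CEBPA, CEBPB and CEBPD, the C/EBP factors that act beside PPARG, had no SNP. ATF4, a factor of the integrated stress response, is named after its values were seen. Its 6 SNPs had summed shares of 0.505 to 0.536, and 3 were called.

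MLXIPL, also known as ChREBP, switches on lipid synthesis genes in response to sugar, and it held the most extreme shares of all members. At position 33553583 of chromosome 24 the reference share was 0.757 at the lowest, 0.873 at the median and 0.889 at the highest of 7 animals, with the reference allele higher in all 7 (adjusted p = 1.24e-08). At the missense SNP at position 33555169 it was 0.0755 at the lowest, 0.0946 at the median and 0.114 at the highest of 4 animals (adjusted p = 1.97e-09). The neighbouring missense SNP at position 33555166 had shares of 0.0833 and 0.107 in 2 animals (adjusted p = 1.22e-06).

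These MLXIPL positions were also those where homozygous animals carried reads of the allele they lack. The means were 10.5% at position 33553583, 6.07% at 33555169 and 6.01% at 33555166. At the other 11 SNPs of MLXIPL the summed shares ran from 0.485 to 0.573, and 2 were called, 0.548 at position 33548951 and 0.563 at position 33551943. More reference reads were found there in 7 of 8 and 8 of 8 animals.

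CREB3L1, a factor released from the endoplasmic reticulum membrane, had shares of 0.571 to 0.897 with a median of 0.683 at position 74536766 of chromosome 15. All 17 heterozygous animals had the reference allele higher (adjusted p = 5.59e-09), and the only homozygous animal had 20% reads of the other allele. At position 74536745 the share was 0.294 at the lowest, 0.433 at the median and 0.585 at the highest of 11 animals. The LRT called the alternate allele higher there (adjusted p = 0.0208) and the moderated test did not (adjusted p = 0.123). Without RS905, RS910, RS917 or RS937 the LRT did not call it either (adjusted p of 0.0635 to 0.122), nor did it with reads thinned to 50 (adjusted p = 0.0571). CREBZF, the bZIP gene with the most reads among those called by neither test, had shares of 0.450 to 0.623 with a median of 0.517 (adjusted p = 0.268).

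**Figure D3:**
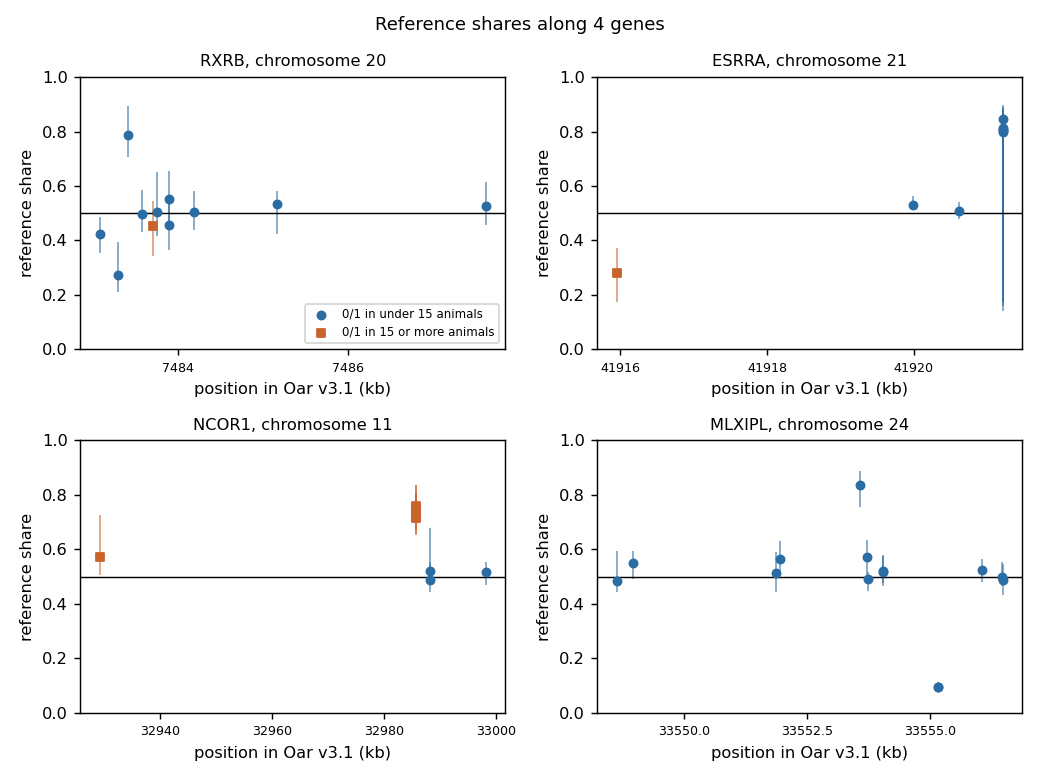
Summed reference share (y axis) of the SNPs of RXRB, ESRRA, NCOR1 and MLXIPL by position (x axis, Oar v3.1), for 4 genes chosen after their values were seen. Vertical lines run from the lowest to the highest animal. In each gene, SNPs far from 0.5 stand among others near it.

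Reads of a lacked allele were not limited to MLXIPL and MED13L. Over 2% of the reads of homozygous animals, on average, were of the other allele at 11 member SNPs (3.06%), with CREB3L1, ESRRA, MED13L, MED22, MLXIPL and RXRB among their genes, against 3.7% of SNPs in the whole table. All 11 were called by the LRT, and 6 of them were among the 17 SNPs that lay more than 0.1 from 0.5. The matching counts for the whole table were not made. With such SNPs left out, the LRT called 31.5% of member SNPs, against 33.9% with them. In the whole table it then called 36.1%, against 38% with them. Their part in the shares was not tested.

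The lineage and zinc finger factors formed the largest group, with 111 SNPs in 28 genes, and 23 SNPs (20.7%) in 8 genes were called, against 24.5% of SNPs and 41.4% of genes in the whole table, 13 with the reference allele higher and 10 with the alternate allele higher. At SNPs heterozygous in under 15 animals, 7 of 90 (7.78%) were called, against 20.6% in the whole table, all with the reference allele higher. EBF2, which commits precursor cells to brown fat, showed a slight imbalance at position 39532058 of chromosome 2. Its share was 0.490 at the lowest, 0.541 at the median and 0.577 at the highest of 11 animals, and 9 of them had more reference reads (2111 and 1810 in sum, adjusted p = 0.00396). The other 4 EBF2 SNPs had summed shares of 0.514 to 0.521 and were not called.

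NFIA, a factor that opens brown fat enhancers, had shares of 0.427 to 0.608 with a median of 0.533 in 8 animals and was not called (adjusted p = 0.551). NFIX, a factor of the same family, was called in its block on chromosome 5 in both directions. At position 10630045 its share was 0.125 at the lowest, 0.206 at the median and 0.338 at the highest, with the alternate allele higher in 18 of 18 animals (adjusted p = 3.30e-16). At position 10629905 it was 0.558 at the lowest, 0.641 at the median and 0.786 at the highest, with the reference allele higher in 18 of 18 (adjusted p = 1.21e-07). Of the 10 SNPs of the block 3 had the reference allele and 7 the alternate allele higher, and the other 2 SNPs of NFIX had summed shares of 0.457 and 0.483.

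Of the Krüppel-like factors, KLF7, known to restrain fat cell formation, had shares of 0.458 to 0.765 with a median of 0.608 at position 208140918 of chromosome 2. The reference allele was higher in 8 of 10 animals (summed share 0.601, adjusted p = 0.0266), and without RS902, RS917 or RS953 it was not called (adjusted p of 0.0505 to 0.0801). With 10 reads of each allele asked of every animal the LRT did not call it either (summed share 0.572, adjusted p = 0.0664). KLF10, a factor induced by TGF-beta, had 17 SNPs with summed shares of 0.492 to 0.548. The called SNP at position 74404540 of chromosome 9 had the reference allele higher in 12 of 12 animals, at 0.514 to 0.573 (adjusted p = 0.0120). At position 74403978 the shares were 0.453 to 0.605 and the adjusted p was 0.0336. This moderated call was lost without RS902, RS917, RS919, RS940, RS953 or RS969 (adjusted p of 0.0504 to 0.0829). The LRT call there (adjusted p = 0.00306) was lost with the null at the median share (adjusted p = 0.157) and with reads thinned to 50 (adjusted p = 0.294).

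Of the T-box factors, some of which are known as marks of fat depots, only TBX2 was called, at 1 of its 2 SNPs. It had shares of 0.515 at the lowest, 0.575 at the median and 0.627 at the highest of 8 animals at position 11260021 of chromosome 11. All 8 had more reference reads (adjusted p = 0.0353), which is part of the rule by which this SNP was named. This moderated call was lost without RS902, RS903, RS917, RS929 or RS953 (adjusted p of 0.0650 to 0.0858). The LRT call of the SNP (adjusted p = 0.00765) was lost with the null at the median share (adjusted p = 0.0694). TBX3 had shares of 0.364 to 0.667 with a median of 0.558 in 9 animals and was not called (LRT adjusted p = 0.0562, moderated 0.136), though without RS902 or RS930 the LRT called it (adjusted p of 0.0250 and 0.0475).

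ZBTB11, 1 of the 3 members with the most SNPs, had shares of 0.304 to 0.706 with a median of 0.617 at position 164471120 of chromosome 1, in a block heterozygous in all 18 animals. The reference allele was higher in 16 of 18 (adjusted p = 0.00289), while the SNPs of that block had summed shares of 0.416 to 0.599. PRDM16, EBF1, KLF15, ZBTB16, GATA2 and TBX15 had no SNP.

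TFAM and NRF1, listed as a group of their own, were both called, at 2 of their 4 SNPs. The whole-table share of 41.4% of genes stands beside this count of 2 genes. TFAM, which packs and transcribes mitochondrial DNA, had shares of 0.438 at the lowest, 0.585 at the median and 0.705 at the highest of 11 animals at position 45240220 of chromosome 25. In 10 of 11 animals reference reads were more frequent (summed share 0.589, adjusted p = 0.00311). NRF1, a factor that switches on TFAM, had shares of 0.236 at the lowest, 0.468 at the median and 0.560 at the highest of 13 animals at position 93624650 of chromosome 4. The alternate allele was higher in 8 and the reference allele in 3 (summed share 0.413, adjusted p = 0.0235). The sign-flip permutation test gave p = 0.0358, which was 0.0575 after Benjamini-Hochberg adjustment over the named SNPs. The moderated call was lost without RS903, RS920, RS940 or RS969 (adjusted p of 0.0555 to 0.0694).

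Partners of these regulators outside the name rule, such as STAT, SREBF and SWI/SNF genes, were also listed. Of 63 such genes 37 had SNPs, 142 in all, and 34 SNPs (23.9%, against 24.5% in the whole table) in 15 genes were called by the moderated test, 29 with the reference allele higher and 5 with the alternate allele higher. SMARCD3, a subunit of the SWI/SNF chromatin remodelling complex that was named after its values were seen, had shares of 0.372 to 0.442 with a median of 0.421 at position 113207681 of chromosome 4. The alternate allele was higher in 10 of 10 animals (adjusted p = 5.94e-07).

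Target genes of PPAR and RXR were listed as well, in the same way. In 33 of 45 such genes 206 SNPs were tested, and 80 (38.8%, against 24.5% in the whole table) in 22 genes were called by the moderated test, 65 with the reference allele higher and 15 with the alternate allele higher. The share differed between animals at 105 of the 206 (51%), against 15.4%. These SNPs had a median of 309.8 reads per heterozygous animal, against 60.5 at the member SNPs, and the part that depth took in these counts was not tested. Of the targets chosen after their values were seen, HADHB, an enzyme of fatty acid oxidation, had shares of 0.545 to 0.616 with a median of 0.598 at position 33362289 of chromosome 3, above 0.5 in 14 of 14 animals (adjusted p = 2.85e-14). GPD1, which makes glycerol phosphate for fat storage, had shares of 0.395 to 0.442 with a median of 0.426 at position 136035117 of chromosome 3, below 0.5 in 9 of 9 animals (adjusted p = 1.68e-10).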

How the data were processed

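The authors deposited a table of reference and alternate read counts and genotype calls for SNPs of 18 PRAT libraries. Per the submitters' processing notes, reads were mapped to Oar v3.1 with STAR and variants were called with GATK 3.4-46. All 24,355 SNPs had at least 10 reads of each allele in 5 animals, and 355 of the 360 member SNPs did so in heterozygous animals. The authors' chi-square statistic, p-value, higher allele and reference ratio columns were not used. Counts of animals called 0/1 were summed and tested by a Poisson LRT against 0.5. It covered 24,244 SNPs in 5795 genes, to which its whole-table shares refer. The moderated quasi-binomial F test covered 24,205 SNPs in 5790 genes and used animals as replicates, with dispersions moderated by limma 3.58.1 in R 4.3.3 (prior dispersion 1.48). Both were Benjamini-Hochberg adjusted over the table with a threshold of 0.05, as was a Pearson chi-square test between animals. The sign-flip tests were exact under 10 animals and used 100000 flips otherwise. Steps were tested on simulated data and run in Python 3.11.15 with numpy 2.4.6, pandas 2.3.3, scipy 1.17.1 and matplotlib 3.10.9.

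Symbols were looked up in a RefSeq table of assembly ARS-UI_Ramb_v3.0, used for names only: 83 of 85 matched, and PPARG2 and ZBTB1 did not. The members and lists were chosen with earlier results of these data known. The top SNP of a gene had the smallest LRT p among SNPs heterozygous in at least 5 animals. Genes were named by rule: up to 15 called by both tests, with all animals in 1 direction and the share farthest from 0.5; in each of the 6 role lists the 2 most unequal called genes and the gene with the most reads that neither test called; a list of known regulators; the 5 SNPs with the largest dispersion; the 6 genes with the widest gap between opposite calls; the 3 genes with the most SNPs; and the 5 most unequal called missense, stop or splice SNPs. Role lists, partners, targets and markers of adipocytes, endothelium, immune cells, fibroblasts, muscle, adrenal and kidney, and erythroid cells were listed. The alternatives were the moderated test, a null at the median share, higher read minimums, leaving out SNPs heterozygous in 15 or more animals or within 5 bp of another, leaving out males, RS929 or each animal, and thinning to 50 reads. Chosen after seeing the data were the leaving out of SNPs with over 2% of reads of the lacked allele, alone or with the other kinds, and the leave-one-out of the moderated test.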

Additional observations from a re-analysis of the deposited data

Results flagged for a closer look

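At the TBX3 SNP at position 59748523, RS902 stood apart from the other 8 of 9 animals. With 8 reference reads against 14 alternate reads, its share was 0.364 (95% Wilson interval 0.197 to 0.570, counting error only), while the next animal had 0.515 and the highest 0.667. Of the 17 named SNPs with few enough animals for this comparison, it was the only 1 with such an animal, and chance alone gives such an animal at about 5% of SNPs.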

How the results depend on the processing

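No named SNP that was called, with or without an alternative, turned its direction under it. Only the shifted null, the thinning and the settings that leave out animals could turn a direction. The moderated test and the settings that leave out whole SNPs keep the share of each remaining SNP as it was. With at least 30 reads of each allele asked of 5 heterozygous animals, 144 member SNPs in 43 genes were left, 58 SNPs (40.3%, against 48.3% in the whole table) in 21 genes were called by the LRT, 86.2% with the reference allele higher, and 18 differed between animals. Leaving out SNPs that 15 or more animals carried as heterozygotes left 74 of 302 called (24.5%, against 33.9% in the whole table), and without SNPs within 5 bp of another 72 of 299 (24.1%, against 33.8%). Fewer SNPs were tested in these settings. With the null at the median share 51.8% of called SNPs had the reference allele higher, a split largely fixed by that choice of null. With reads thinned to 50, the LRT called 100 of 360 SNPs (27.8%, against 26.3% in the whole table), and 16 SNPs differed between animals. Without both kinds of SNPs and those with over 2% of reads of the lacked allele, chosen after seeing the data, the LRT called 57 of 275 SNPs (20.7%, against 31.7% in the whole table), 84.2% with the reference allele higher. The moderated test then called 26 SNPs in 17 genes (9.45% of SNPs, against 17.2%), 88.5% with the reference allele higher. Leaving out each animal in turn gave 119 to 126 called SNPs, 45 to 50 called genes, 73.8% to 76.9% with the reference allele higher, and 28 to 36 SNPs that differed between animals.

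Parts of the naming rule ask for a call by the LRT or by both tests, so the counts that follow were partly fixed by it. Of the 45 named SNPs the LRT called 36. Of these, 33 were also called by the moderated test, 31 with reads thinned to 50, 32 with the null at the median share, which called 2 others, and all 36 without the males. Leaving out single animals in turn changed the LRT call at 4 SNPs and the moderated call at 7. The precision of a share in a single animal is limited by its reads, a median of 60.5 per animal and member SNP.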
